A study of Ovis aries with 27 samples.

Results

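Did cortisol given to the pregnant ewe act differently on transcripts of the fetal heart at 130 d of gestation than at 140 d, close to term? The comparison that addresses this, the interaction of cortisol and age, used 27 of 27 arrays, each holding RNA from the interventricular septum of 1 sheep fetus. Controls at 130 d came from ewes that received vehicle (n = 6), and cortisol fetuses at 130 d from ewes that received 1 mg/kg/d of cortisol (n = 6). Both were sampled between 129 and 131 d, after an infusion of about 10 d. Controls at 140 d (n = 8) and cortisol fetuses at 140 d (n = 7) were sampled between 139 and 144 d, after about 25 d of vehicle or of the same dose. Groups were read from the sample titles. The infusion of the younger cohort is given a start at about 120 d in some of the labels and at about 115 d in another. Each age was its own cohort of ewes. A difference between ages is therefore also one between cohorts and between infusions of unequal length, and these cannot be told apart. The 8 older controls came from 7 ewes, since 1 ewe carried twins, and each fetus was counted as independent because the labels do not say which 2 these were.

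Cortisol is the main glucocorticoid of sheep. It enters cells, binds the glucocorticoid receptor NR3C1 and, less selectively, the mineralocorticoid receptor, and the bound receptors switch target genes on and repress inflammatory transcription driven by NF-kappaB. The rise of cortisol in the fetus before birth matures the heart and other organs, and glucocorticoids are known as suppressors of the genes that interferons and inflammatory cytokines turn on.

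A level is log2 of the spot intensity minus the array's 75th percentile, so that 0 is a spot at that percentile. The cortisol effect at an age is the mean of the cortisol fetuses minus the mean of the controls. The quantity described is the effect at 140 d minus the effect at 130 d, called the difference, and it is positive where cortisol fetuses stood higher against their controls at 140 d than at 130 d. Each gene was read from 1 array probe of 60 bases. The probes that measured 3 genes to which the account returns, and the unnamed probe with the smallest p of all, are given 5′ to 3′ in the strand printed in the scanner files, because a level here is a level of RNA that binds this stretch and not of the whole transcript.
IRF1: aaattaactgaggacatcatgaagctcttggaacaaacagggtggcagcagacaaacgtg
B2M: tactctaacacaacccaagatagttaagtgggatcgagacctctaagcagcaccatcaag
LHCGR: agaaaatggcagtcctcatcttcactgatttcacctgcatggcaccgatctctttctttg
A_70_P055151: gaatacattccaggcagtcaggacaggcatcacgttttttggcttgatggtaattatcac

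No transcript met the threshold for a difference between the ages. In limma's fit, 0 of 12778 tested probes (0%) had a Benjamini-Hochberg adjusted p under 0.05, and the smallest adjusted p was 0.203. Without control 130 d replicate 5 the count was 1, and without control 140 d replicate 6 it was 2, all of them unnamed probes with negative differences. At an unadjusted p under 0.05 there were 743 probes (5.81%), against 638.9 that a rate of 5% gives. Of these, 264 had a positive difference (2.07% of those tested) and 479 a negative one (3.75%). Cortisol itself gave 0 called probes (0%) at 130 d, with a smallest adjusted p of 0.598 and 455 at an unadjusted p under 0.05. At 140 d it also gave 0 (0%), with a smallest adjusted p of 0.488 and 727 unadjusted. The standard error of a difference had a median of 0.223 over probes, with lower and upper quartile values of 0.168 and 0.324. For 9963 probes (78.0%) the whole 95% confidence interval lay within 1 log2 unit of 0, and 344 probes had a fitted difference larger than 1.

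Of the 798 genes with a symbol, 356 had a positive difference and 442 a negative one. Lower with cortisol at 130 d and higher at 140 d were 195 (24.4%). At an unadjusted p under 0.05, 30 (3.76%) had a positive and 36 (4.51%) a negative difference. None met the adjusted threshold, so that the genes below are described by their values. All 30 positive ones had a lower mean in cortisol than in control fetuses at 130 d and a higher mean at 140 d. Of the 36 negative ones, 34 had a higher mean at 130 d and a lower mean at 140 d, and 2, CLCN2 and NPPC, were higher at 130 d and level at 140 d. Choosing genes by their difference itself favours opposite directions at the ages. Of all 743 probes at this p, 261 (35.1%) were lower with cortisol at 130 d and higher at 140 d, and 470 (63.3%) the reverse. Over all tested probes the effect pointed opposite ways at the ages in 52.3%, and the correlation of the effects across probes was -0.16 (Pearson) and -0.08 (Spearman, n = 12778 probes). The fetuses at the ages were different ones, while their arrays shared slides, and probes are not independent. Without control 130 d replicate 3 and cortisol 140 d replicate 4, the arrays that stood farthest out in the immune genes below, the Pearson correlation was -0.09.

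**Figure D1:**
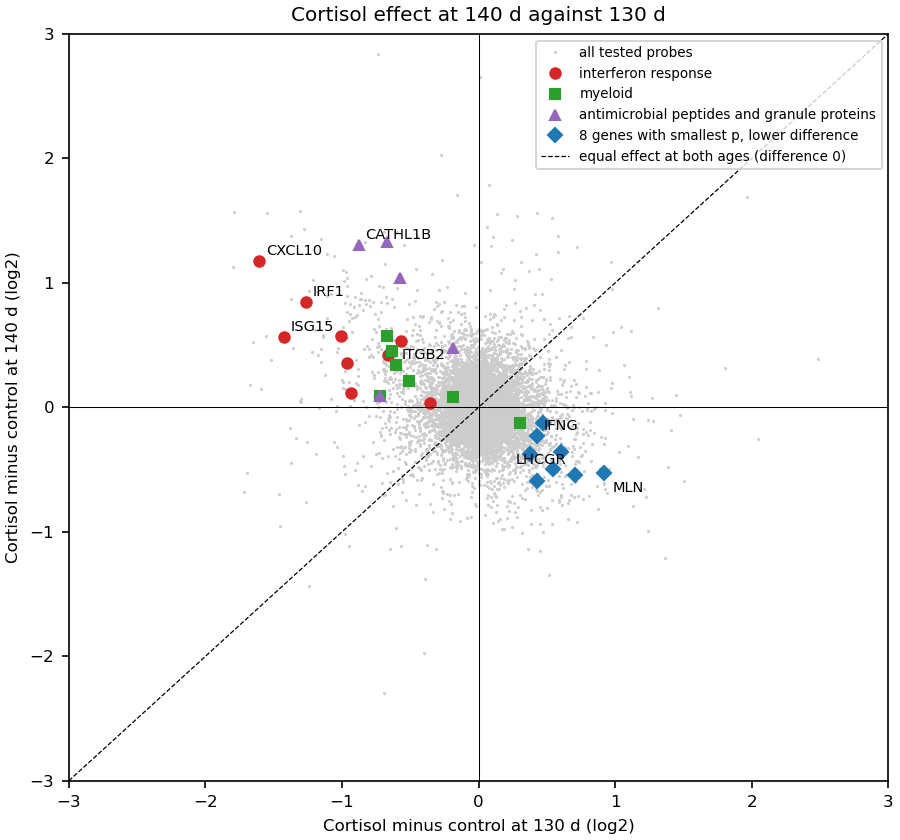
The cortisol effect at 140 d (vertical, log2) is plotted against that at 130 d (horizontal, log2) for the 12778 tested probes in grey (1 lies beyond the axes), with 3 gene lists and the 8 genes of smallest p and negative difference in colour. The dashed line marks an equal effect at both ages, and all 9 interferon-response genes lie above it with a negative effect at 130 d and a positive one at 140 d.

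The measured genes of the interferon-response list were on the positive side without exception. IRF2 and IRF3, interferon regulatory factors outside the list, had differences of -0.21 and 0.16. Of the 39 genes on the interferon-response list 9 had a tested probe, all 9 had a positive difference, and 6 of them were at an unadjusted p under 0.05, against 3.76% of named genes. Their median difference was 1.32 on the log2 scale, against -0.03 over all named genes and -0.04 over all probes. The median effect of cortisol on the list was -0.96 at 130 d and 0.53 at 140 d. In all 9 the control mean at 130 d was the highest of the 4 group means and the control mean at 140 d the lowest, an order found in 10.9% of all tested probes and 13.4% of named genes. A positive difference itself favours this order. It was found in 20 (66.7%) of the 30 named genes with a positive difference at an unadjusted p under 0.05. It also held in 5 of 5 genes of antimicrobial peptides and 5 of 7 myeloid markers, described below.

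IRF1, a transcription factor that interferon induces and that switches on antigen-presentation genes, had the smallest p of the positive genes. At 130 d its levels ran from -3.00 through a median of -2.11 to -0.68 in controls and from -3.77 through -3.17 to -2.80 in cortisol fetuses. At 140 d they ran from -4.31 through -3.57 to -2.96 in controls and from -3.49 through -3.21 to -1.30 with cortisol. The groups overlapped at both ages, with control replicates 3 and 5 highest at 130 d and cortisol replicates 4 and 3 highest at 140 d. All 6 cortisol fetuses lay below the control mean at 130 d and all 7 above it at 140 d. Group means were -1.98 ± 1.02 (SD, n = 6), -3.24 ± 0.35 (n = 6), -3.63 ± 0.40 (n = 8) and -2.79 ± 0.92 (n = 7), in the order control and cortisol at 130 d, then control and cortisol at 140 d, which is kept below. The effect was -1.26 ± 0.40 (SE) at 130 d and 0.84 ± 0.36 at 140 d, and the difference 2.11 ± 0.53 (limma, adjusted p = 0.259), or 1.60 without both of the arrays named above.

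ISG15, a ubiquitin-like protein that is conjugated to others after interferon, had means of 2.62, 1.20, -0.39 and 0.17 and a difference of 1.98 ± 0.83. CXCL10, the chemokine that draws T cells to interferon-exposed tissue, had the widest difference of the list, 2.78 ± 1.30 from means of -0.45, -2.05, -4.94 and -3.77. It was also among the most variable, with an SD of 2.14 in controls at 130 d and 2.26 in cortisol fetuses at 140 d, and its difference was 1.52 without both arrays. MX1 and MX2, antiviral GTPases, had differences of 1.32 ± 0.66 and 1.05 ± 0.53. Without both arrays MX2 had 0.50. RTP4, an interferon-induced protein that helps receptors reach the membrane, had means of 1.71, 0.70, 0.61 and 1.18 and a difference of 1.58 ± 0.53 (limma, adjusted p = 0.483), and its other probe gave 1.64.

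Some genes of antigen presentation are given here one by one, since no list was made for them and B2M and PSMB8 are already counted above. B2M, the light chain of major histocompatibility complex (MHC) class I, ran from 4.62 through 5.25 to 6.67 in controls and from 4.46 through 4.80 to 5.01 in cortisol fetuses at 130 d. At 140 d it ran from 4.26 through 4.59 to 5.55 in controls and from 4.67 through 5.02 to 5.84 with cortisol. Groups overlapped at each age, and the highest values belonged to control 130 d replicate 3 and cortisol 140 d replicate 4. The difference was 1.08 ± 0.37 (limma, adjusted p = 0.483), and 0.72 without both arrays. A class I antigen listed as OVAR had 1.69 ± 0.60, with means of 4.69, 3.86, 3.49 and 4.35. PSMB8, the immunoproteasome subunit that trims peptides for class I, had means of -1.30, -1.87, -2.08 and -1.55 and a difference of 0.52 without both arrays. The class II chain MHCII-DRB1 and cathepsin S (CTSS), which prepares class II molecules for peptide loading, were named after their values were seen, with differences of 1.84 ± 0.67 and 1.08 ± 0.43, or 1.13 and 0.52 without both arrays. Others of this kind lay near 0, CD1D at 0.00 ± 0.21 and the proteasome activator PSME2 at 0.09 ± 0.17. Near-identical MHC genes can share these probes, so which class I or class II gene was measured is uncertain.

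Of the interferons on the list, IFNG had a tested probe. It encodes interferon gamma, which activated lymphocytes secrete, and had means of -4.52, -4.09, -3.82 and -4.06 and a negative difference, -0.66 ± 0.17 (limma, adjusted p = 0.259). At 130 d its controls spanned -4.77 to -4.30 and its cortisol fetuses -4.39 to -3.65, an overlap of less than 0.1. IFN1 and IFNT6, interferons outside the list that were named after their values were seen, had 0.06 ± 0.41 and 0.12 ± 0.44, with the other probe of IFNT6 at 0.56. The receptor chain IFNAR2 had 0.24 ± 0.20, and the list of interferons and receptors (3 of 10 measured) had a median of 0.05.

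Some arrays stood apart within their group in the interferon genes. Averaged over the 9 genes, controls at 130 d lay between 0.01 and 1.16 except replicate 3 at 2.87, cortisol fetuses at 130 d between -0.66 and 0.22, controls at 140 d between -2.13 and -0.16 and cortisol fetuses at 140 d between -1.41 and 0.34. Controls and cortisol fetuses overlapped at both ages. Without both arrays, all 9 differences were still positive, their median was 0.91, 3 were at an unadjusted p under 0.05, and the order of means held in 9 of 9. The median was 0.85 without control 130 d replicate 3 alone and 1.37 without cortisol 140 d replicate 4 alone. The list median was 1.83 within slide 2 and 2.39 within slide 3, each with 2 fetuses of each group, and -0.03 within slide 4, with 2 of each younger group and 1 of each older group. Slide 3 held both of the arrays in question and slide 2 neither.

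**Figure D2:**
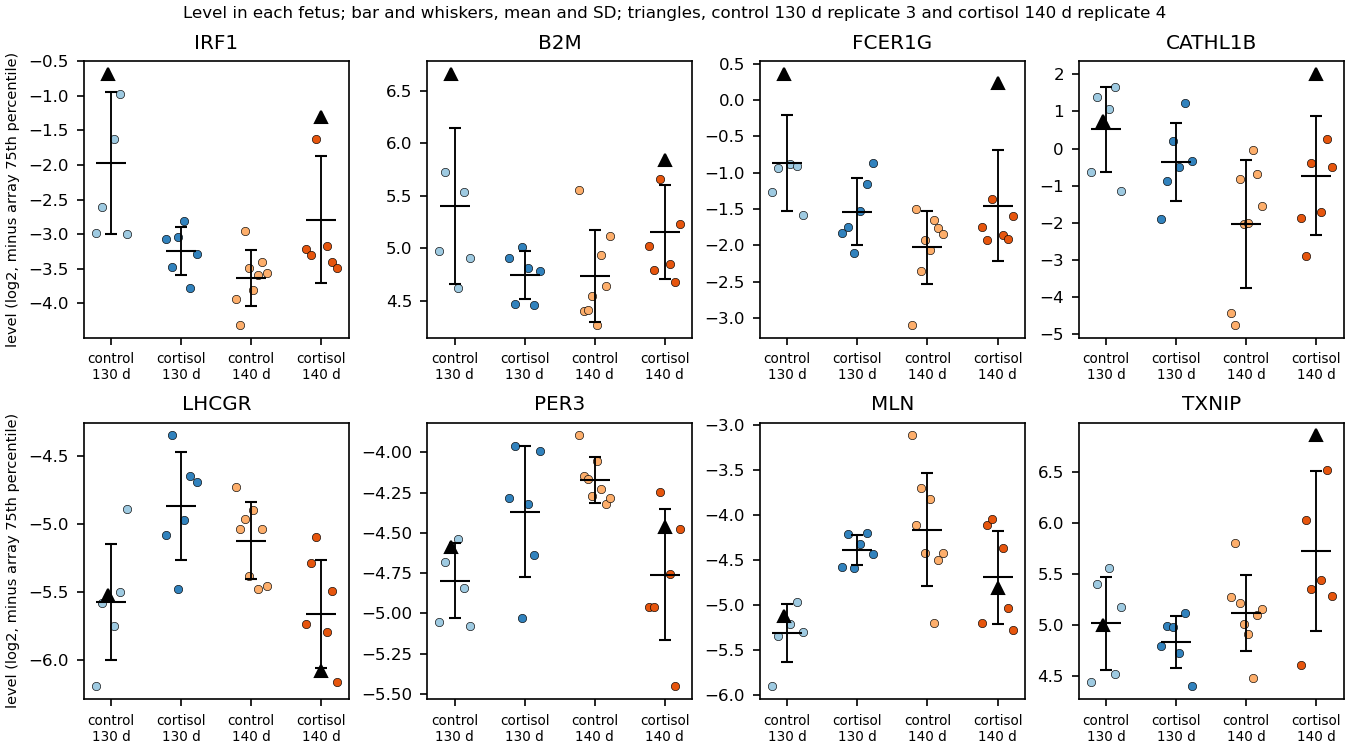
Each panel plots the level of 1 gene (log2, minus the array's 75th percentile) in each fetus by group, with the mean and SD as bar and whiskers and control 130 d replicate 3 and cortisol 140 d replicate 4 as triangles. IRF1, B2M and FCER1G have those triangles at the top of their groups, while LHCGR, PER3 and MLN do not.

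Adhesion molecules, cytokines and enzymes of inflammatory lipid mediators were mostly on the positive side. Of the 17 measured genes of this list 12 had a positive difference and 5 were at an unadjusted p under 0.05 in that direction, none in the other. Of the 798 named genes, 356 had a positive difference and 3.76% were at that p on the positive side. The median was 0.66, and it was 0.39 without cortisol 140 d replicate 4 and 0.31 without both arrays. With normexp background subtraction it was -0.09, against -0.16 for all named genes. ICAM1, the endothelial ligand of leukocyte integrins, ran from -4.25 through -3.63 to -1.73 in controls and from -4.55 through -4.36 to -3.97 with cortisol at 130 d. At 140 d it ran from -5.36 through -4.57 to -4.33 in controls and from -4.49 through -4.05 to -2.31 with cortisol. Here too all 6 younger cortisol fetuses lay below and all 7 older ones above the control mean, with overlap at the edges. The difference was 1.73 ± 0.47 (limma, adjusted p = 0.316) and 1.33 without both arrays. ALOX5AP, which presents arachidonic acid to the enzyme that makes leukotrienes, had -1.29, -1.98, -2.13 and -1.57 and a difference of 1.25 ± 0.36, or 0.79 without both arrays. IL10, an anti-inflammatory cytokine, had 1.20 ± 0.39 from means of -4.57, -5.36, -6.33 and -5.91, or 0.81 without both arrays and -0.07 with normexp, and its probe was well above background on 6 of 8 control arrays at 140 d. NFKBIA, the inhibitor of NF-kappaB and a gene that glucocorticoids induce, had 1.56, 1.03, 1.89 and 2.33 and a difference of 0.97 ± 0.41. Cortisol 140 d replicate 4 was highest, at 3.96 against 2.73 or less in the rest of its group. Without it the difference was 0.70. The classical cytokines IL1B and TNF had 0.17 ± 0.28 and 0.17 ± 0.51, and without both arrays TNF had -0.27. Inducible nitric oxide synthase (NOS2) had -0.998 ± 0.832.

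Markers of myeloid cells, the macrophages and neutrophils, had the same direction. Of 7 measured markers 6 were lower with cortisol at 130 d and higher at 140 d, against 24.4% of named genes. At an unadjusted p under 0.05 were 3, all positive, against 3.76% of named genes, and the median difference of the 7 was 0.81. With normexp the median was 0.27, with 4 of 7 positive, and within slides 2, 3 and 4 it was 0.84, 1.89 and -0.09. FCER1G, the signalling chain of Fc receptors, ran from -1.58 through -0.92 to 0.36 in controls and from -2.11 through -1.63 to -0.86 with cortisol at 130 d. Older controls ran from -3.10 through -1.88 to -1.50 and older cortisol fetuses from -1.92 through -1.75 to 0.23. The groups overlapped at both ages, and control 130 d replicate 3 and cortisol 140 d replicate 4 stood alone at the top of their groups. The difference was 1.24 ± 0.45 (limma, adjusted p = 0.564), and 0.72 without both. ITGB2, the common chain of leukocyte integrins, had 0.95 ± 0.34, or 0.54 without both, and -0.32 within slide 4. CD14 had 0.27 ± 0.23, and CD80 was opposite at -0.43 ± 0.24. The mean of the 7 markers ranged from -3.44 to -2.15 in controls and from -3.81 to -2.83 in cortisol fetuses at 130 d, and from -3.96 to -3.35 and from -3.96 to -2.30 at 140 d. The highest value at each age came from an array named above. Without these the list median was 0.44, and 6 of 7 remained positive. Whether the marker levels account for any part of the interferon and adhesion results was not tested. In whole tissue, fewer cells of a type and less RNA per cell cannot be told apart.

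Antimicrobial peptides of neutrophils had wide differences with wide errors. All 5 measured genes were lower with cortisol at 130 d and higher at 140 d, against 24.4% of named genes. Their median was 1.61, and 1 was at an unadjusted p under 0.05, against 3.76% of named genes on that side. Without both arrays the median was 1.19, with 4 of 5 positive. LYZ, 1 of these genes, is also counted among the myeloid markers. CATHL1B, a cathelicidin, spanned -1.14 to 1.66 in controls and -1.89 to 1.22 with cortisol at 130 d, and -4.75 to -0.05 and -2.89 to 2.01 at 140 d. Its difference was 2.18 ± 1.06 (limma, adjusted p = 0.855). At 140 d control replicates 1 and 2 stood apart, at -4.42 and -4.75 for CATHL1B and -5.48 and -5.38 for CATHL3. The other controls at 140 d were at -2.03 or above for CATHL1B and -1.89 or above for CATHL3. CATHL3 had 2.00 ± 1.23, and lactoferrin (LTF) 0.67 ± 0.99, which was -0.21 without both arrays. Red-cell transcripts are given beside these as a sign of blood in the sample. HBB, the beta chain of haemoglobin, had 0.66 ± 0.83, and AHSP, which stabilises the alpha chain, 1.34 ± 1.01. Lymphocyte markers had no common direction of the difference. Of 7, 4 were positive, and the median was 0.02, or -0.29 without both arrays. With cortisol 6 of the 7 were lower at 130 d, and 1 was higher at 140 d. The T-cell genes CD3D, CD5, CD3E and CD247 had 0.04 ± 0.41, 0.32 ± 0.32, -0.20 ± 0.56 and -0.46 ± 0.28. The 1 marker at an unadjusted p under 0.05 was CD40LG, on the negative side, which is given below with its limits.

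Toll-like receptors and their adaptors, which sense microbial products, were all on the positive side with small differences. All 8 measured genes were positive, with a median of 0.37 and 1 at an unadjusted p under 0.05. Of the 798 named genes, 356 were positive, and 3.76% were positive at that p. IRAK4, the kinase downstream of these receptors, had 0.60 ± 0.22 from means of -3.45, -3.80, -3.59 and -3.34, with its other probe at -0.21. TLR7 had 0.52 ± 0.27, with a probe well above background on 4 of 6 cortisol arrays at 130 d. Under normexp only 1 of the 8 was positive, and the median was -0.15, close to the -0.16 of all named genes. Without both arrays it was 0.10, and without cortisol 140 d replicate 4 alone 0.21.

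Direct targets of glucocorticoids were measured in part. Under the listed symbols 7 of 27 genes had a tested probe. FKBP5, TSC22D3 and PER1, among the most used readouts of receptor activity, were not among the probes named so. A gene named MPER1 had a difference of 0.29 and was not matched to PER1 or counted on the list. Of the 7, 6 had a positive difference, with a median of 0.44 that was 0.22 without cortisol 140 d replicate 4, 0.13 without both arrays and -0.02 with normexp. TXNIP, a brake on glucose uptake that glucocorticoids induce, ran from 4.44 through 5.09 to 5.56 in controls and from 4.40 through 4.89 to 5.12 with cortisol at 130 d. At 140 d it ran from 4.48 through 5.13 to 5.80 in controls and from 4.61 through 5.45 to 6.87 with cortisol. The cortisol fetuses reached higher at 140 d, where 6 of 7 lay above the control mean, but the groups overlapped. The difference was 0.80 ± 0.38 (limma, adjusted p = 0.838). The highest level, 6.87, was that of cortisol 140 d replicate 4, and without that array the difference was 0.61. The gluconeogenic genes PCK1 and G6PC1 had 0.92 ± 0.59 and 0.02 ± 0.23.

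Genes that receive, make or modify corticosteroids were mostly on the negative side. Of 9 measured, 2 were positive, against 356 of the 798 named genes, and the median was -0.21. At an unadjusted p under 0.05 was 1 of the 9, on the negative side, against 4.51% of named genes. The glucocorticoid receptor NR3C1 had means of -3.55, -3.44, -3.35 and -3.44 and a difference of -0.19 ± 0.24, with a 95% interval from -0.68 to 0.29. HSD11B1, which regenerates active cortisol inside cells, had -2.62, -2.52, -1.67 and -1.58, and its difference was -0.01 ± 0.36 with an interval from -0.75 to 0.74. HSD11B2, which inactivates cortisol, had -0.33 ± 0.81, and 1 control at 140 d, replicate 3, stood at -0.12 against a group median of -4.54. AVPR1B, the pituitary vasopressin receptor, had -1.09 ± 0.49, with its other probe at -0.31, and CRHR1, the receptor for corticotropin-releasing hormone, 0.57 ± 0.28, or -0.26 with normexp. ABCB1, a pump that exports steroids, had effects of 0.54 ± 0.42 at 130 d and 0.62 ± 0.38 at 140 d, so that its difference was 0.08 ± 0.57.

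**Figure D3:**
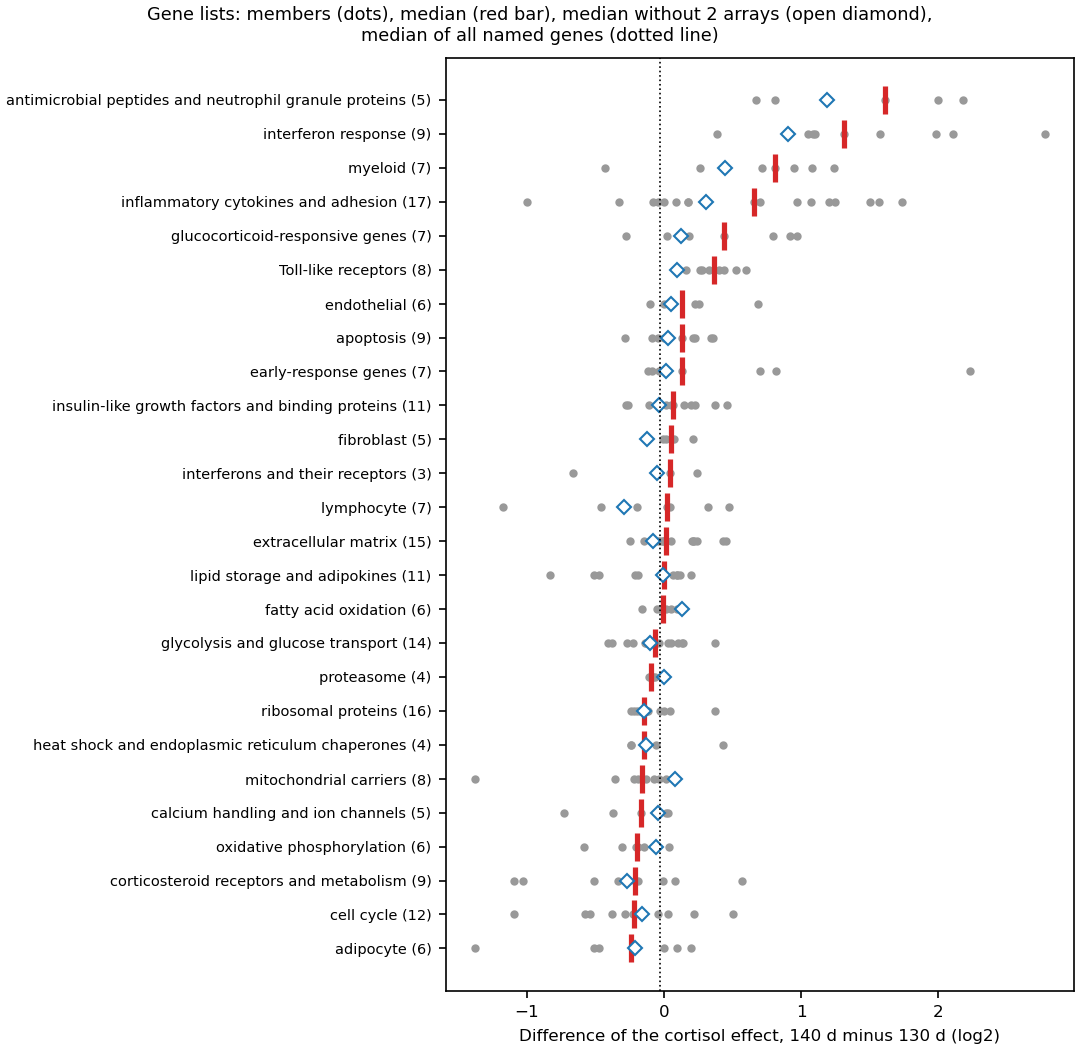
For 26 gene lists with at least 3 measured genes, dots give the members' difference of the cortisol effect (140 d minus 130 d, log2), the red bar their median and the open diamond the median without control 130 d replicate 3 and cortisol 140 d replicate 4. The lists with medians above 0.3 are antimicrobial peptides (1.61), interferon response (1.32), myeloid (0.81), inflammatory genes (0.66), glucocorticoid-responsive genes (0.44) and Toll-like receptors (0.37), and for each of them the diamond lies to the left of the bar.

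The genes with the smallest p on the negative side were higher with cortisol than in controls at 130 d and lower at 140 d. Several of them are known mainly from other tissues. LHCGR, the receptor for luteinizing hormone, had the smallest p of all named genes. It ran from -6.20 through -5.56 to -4.89 in controls and from -5.48 through -4.83 to -4.35 with cortisol at 130 d. At 140 d it ran from -5.48 through -5.04 to -4.73 in controls and from -6.16 through -5.73 to -5.10 with cortisol. The groups overlapped at both ages, while 6 of 6 younger cortisol fetuses lay above their control mean and 6 of 7 older ones below. Its probe was well above background on 5 of 6, 6 of 6, 8 of 8 and 5 of 7 arrays. Means were -5.58, -4.87, -5.12 and -5.67, and the difference was -1.25 ± 0.28, with a 95% interval from -1.82 to -0.67 (limma, adjusted p = 0.204). Leaving out both arrays gave -1.19, and the values within slides 2, 3 and 4 were -1.49, -1.18 and -1.12.

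PER3, a component of the circadian clock, ran from -5.08 through -4.76 to -4.54 in controls and from -5.03 through -4.30 to -3.96 with cortisol at 130 d. At 140 d controls were tightly placed, from -4.32 through -4.20 to -3.89, and cortisol fetuses ran from -5.45 through -4.76 to -4.25. All 7 older cortisol fetuses were below the control mean. The difference was -1.02 ± 0.24 (limma, adjusted p = 0.235), and the gene's other probe gave -0.28. The labels used here give no time of day for sampling.

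Groups of arrays that did not overlap were few. Over all tested probes, every cortisol fetus lay above every control at 130 d for 48 probes (0.376%) and below for 9 (0.0704%), and at 140 d the counts were 0 (0%) and 2 (0.0157%). Of the 798 named genes 7 were in the first class, MLN and SFTPD among them. Genes of vasoactive peptides and their receptors overlapped between the groups at both ages. The angiotensin receptors AGTR1 and AGTR2 had differences of -0.33 ± 0.29 and -0.35 ± 0.41, endothelin-1 (EDN1) 0.26 ± 0.33 and its receptor EDNRB -0.33 ± 0.18, with its other probe at 0.41.

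MLN, the gut hormone motilin, spanned -5.90 to -4.97 in controls and -4.59 to -4.21 with cortisol at 130 d, without overlap, and had means of -5.31, -4.39, -4.16 and -4.69 and a difference of -1.45 ± 0.35 (limma, adjusted p = 0.237), but its other probe gave 0.13. SFTPD, surfactant protein D of the lung, had -5.17, -4.70, -4.46 and -4.59 and a difference of -0.59 ± 0.16, with 5 control values at 130 d because 1 spot was an outlier. BARX2, a homeobox transcription factor, had -0.96 ± 0.25, and KCNK3, a background potassium channel of excitable cells, -0.75 ± 0.21 with its other probe at -0.11. CLCN2, a chloride channel, had -4.43, -3.69, -4.20 and -4.19, so that cortisol fetuses were higher at 130 d by 0.74 ± 0.18 and level with controls at 140 d, at 0.01 ± 0.16. Its difference was -0.73 ± 0.24 (limma, adjusted p = 0.465), and -0.71 with its other probe. Leptin (LEP), the hormone of fat cells, had -0.48 ± 0.15, with its other probe at 0.16.

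**Figure D4:**
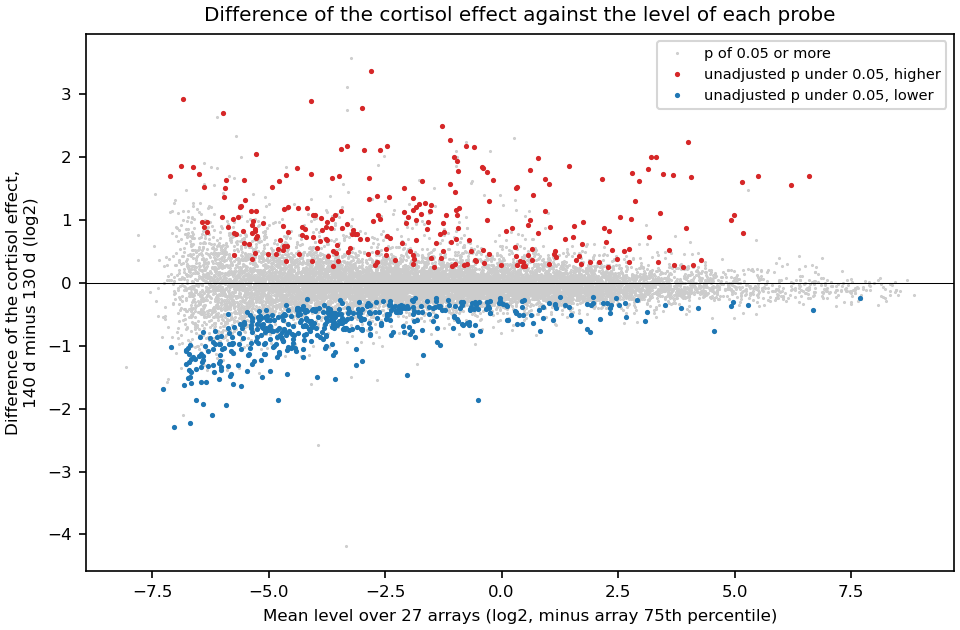
The difference of the cortisol effect (log2, vertical) is plotted against the mean level of each of 12778 probes over 27 arrays (log2, horizontal), with probes at an unadjusted p under 0.05 in red (higher) and blue (lower). Blue points crowd at the dim end, where the dimmest 3195 probes hold 224 lower and 73 higher ones, while the brightest 3195 hold 46 and 69.

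The negative side was concentrated among dim probes. In 4 sets of 3194 or 3195 probes from the dimmest to the brightest, 224, 134, 75 and 46 had a negative difference at an unadjusted p under 0.05, and 73, 65, 57 and 69 a positive one. Median levels were -3.69 for the negative and -1.90 for the positive probes, against -1.73 for all, and median GC contents of the probes were 45.0%, 43.3% and 43.3%. The signal of 1042 probes that were well above background on no array differed between groups in the same direction. Its level was -8.65 ± 0.26 (SD, n = 6) in controls and -8.45 ± 0.30 (n = 6) with cortisol at 130 d, and -8.20 ± 0.30 (n = 8) and -8.22 ± 0.23 (n = 7) at 140 d, a difference of -0.22. Its part in the negative differences of dim genes was not tested. The unnamed probe A_70_P055151 had the smallest p of all probes, with means of -6.38, -5.46, -5.89 and -6.50 and a fitted difference of -1.53 ± 0.30 (limma, adjusted p = 0.203). It was not well above background on any of the 7 cortisol arrays at 140 d, where its level is only a bound. Probe A_70_P050806, above background throughout, had -4.45, -3.58, -3.64 and -4.27 and a difference of -1.49 ± 0.31. On the positive side the unnamed probes A_70_P009581 and A_70_P034356 had 0.83 ± 0.22 and 1.00 ± 0.28.

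The lists for oxidative phosphorylation, mitochondrial carriers, ribosomal proteins and the proteasome had medians a little below that of all named genes, -0.03. With normexp, where all named genes had a median of -0.16, the lists for oxidative phosphorylation and ribosomal proteins stood above it instead, at -0.05 and -0.01. Of 6 measured genes of oxidative phosphorylation 1 was positive, against 356 of the 798 named genes. The list median was -0.20, or -0.06 without both arrays. COX5A, a subunit of cytochrome oxidase, had -0.59 ± 0.25 and ATP5PD, of ATP synthase, -0.31 ± 0.16 from means of 0.91, 0.94, 1.62 and 1.34. Mitochondrial carriers had a median of -0.16 (1 of 8 positive), which was 0.08 without both arrays. SLC25A33 and SLC25A5, carriers of pyrimidine nucleotides and of ADP and ATP, had -0.36 ± 0.28 and -0.22 ± 0.21. UCP1, the heat-producing carrier of brown fat, had -1.38 ± 1.43, ranged from -1.95 to -0.67 with 1 array left out, and was well above background on 3 arrays of each group. Ribosomal protein genes had a median of -0.15 (3 of 16 positive), and 8 of 16 were positive with normexp. RPS2 and RPS6 had -0.24 ± 0.11 and -0.22 ± 0.14. Proteasome genes PSMB7 and PSMA6 had -0.10 ± 0.12 and -0.11 ± 0.16, and both had a positive sign with normexp. The proteasome list had a median of -0.09, which was 0.004 without both arrays.

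On the lists for fatty acid oxidation and for glycolysis and glucose transport, 0 genes were at an unadjusted p under 0.05. LPL, which frees fatty acids from blood lipoproteins, had 0.09 ± 0.26 and PPARGC1A, a coactivator of mitochondrial genes, -0.16 ± 0.24. The lactate carrier SLC16A1 had -0.38 ± 0.24 and glycogen phosphorylase PYGB -0.27 ± 0.18. List medians were -0.01 for fatty acid oxidation (6 genes) and -0.06 for glycolysis and glucose transport (14 genes). The leptin receptor LEPR, of the lipid storage list, had -0.83 ± 0.92. It was -0.32 without control 130 d replicate 6 and -0.35 without cortisol 140 d replicate 3, and its probe was well above background on 5 or 6 arrays of each group.

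Growth and cell-cycle genes likewise had no member at an unadjusted p under 0.05. Of 11 genes of the insulin-like growth factor system 8 were positive, with a median of 0.06, or -0.04 without both arrays. IGF1 and its receptor IGF1R had 0.46 ± 0.51 and 0.37 ± 0.33, and IGF1 was 0.03 without both arrays. Of 12 cell-cycle genes 3 were positive, with a median of -0.22. CCND3, a cyclin of the G1 phase, had 0.50 ± 0.25 (0.26 without both arrays), the kinase CDK2 -0.29 ± 0.23 and the mitotic kinase CDK1 -0.58 ± 0.69. The early-response gene MYC had 1.34, 1.08, 1.26 and 1.71 and a difference of 0.70 ± 0.29, and FOS 2.23 ± 1.18. FOS was at 4.78 in control 130 d replicate 4 and 4.07 in cortisol 140 d replicate 4, against group medians of -0.95 and -1.13. Its difference was 1.27 without the first of these, a value that still includes the second. Among apoptosis genes BAD had -0.28 ± 0.14 and TNFRSF1A 0.34 ± 0.26. With normexp TNFRSF1A had -0.10. The chaperones HSP90AA1 and HSPA1A had -0.24 ± 0.18 and 0.43 ± 0.40, and HSPA1A had 0.15 without cortisol 140 d replicate 6.

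Structural and vascular markers had medians close to that of all genes. The tissue label could be checked on few genes, since 0 of 10 cardiomyocyte and 0 of 6 conduction markers had a tested probe under the listed symbols. A gene named OMYHCS, which was not matched to a listed marker, had a difference of -0.29. Myoglobin (MB) and tropomyosin (TPM1), both abundant in heart muscle, were at 8.02 and 7.81 in controls at 130 d, and they had differences of -0.29 ± 0.22 and -0.23 ± 0.13. The gap junction gene GJA1 had -0.37 ± 0.28, or -0.17 without cortisol 140 d replicate 4, where it was at 2.47 against 3.46 and above in the other fetuses of its group. Endothelial markers had a median of 0.13 (6 genes), or -0.06 with normexp, with FLT1 at 0.68 ± 0.47 (0.34 without both arrays) and PECAM1 at 0.22 ± 0.23. Fibroblast markers had 0.05 (5 genes), or -0.07 with normexp, with DCN at 0.22 ± 0.25 and VIM at 0.07 ± 0.35. Of 15 extracellular matrix genes 8 were positive, with a median of 0.01. The matrix protease MMP2 and the inhibitor TIMP3 had 0.43 ± 0.26 and 0.45 ± 0.45, both smaller without cortisol 140 d replicate 4, at 0.28 and 0.17. CD40LG, a T-cell ligand, had -1.18 ± 0.54 and was well above background on 1 to 3 arrays of a group.

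The arrays differed in ways other than the groups. The mean 75th percentile of intensity was 1160 and 1093 in controls and cortisol fetuses at 130 d and 838 and 884 at 140 d, and it was lowest, 602, in cortisol 140 d replicate 4. That array also had the lowest median correlation with the other arrays of its group, 0.967. The number of arrays limits the precision of every value given. The p values measure the spread between fetuses, and a p that misses the threshold does not show that an effect was equal at both ages.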

How the data were processed

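Cy3-labelled cRNA from septum RNA was hybridised to 1-colour Agilent sheep arrays. The scanner files that the authors deposited give 1 processed intensity per spot. Per the file headers, the scanner software had subtracted background and removed spatial trends, and had not normalized between arrays. The submitters' processing notes name the software, Agilent Feature Extraction 10.1.1.1. The authors also deposited a table of log2 values, which served as an alternative. Each of its columns equals log2 intensity minus a constant, whose origin the sources used here do not give. Its column medians lay between 0.09 and 0.12.

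From log2 intensity the array's own 75th percentile was subtracted, taken over spots that are not controls. Spots with an outlier mark were dropped and the rest averaged per probe. Of 15008 probes, 12778 had 6 or more arrays well above background and were tested, 83 of them with missing values. Symbols were taken from the files or from the sheep RefSeq table (ARS-UI_Ramb_v3.0), for 1225 tested probes (9.59%) and 798 genes. For 90 of all 15008 probes, the name in the file was matched to a symbol by hand. The other 11553 tested probes had no symbol. A gene was represented by its probe with the highest mean. Group means were fitted with limma 3.58.1 (lmFit, eBayes, R 4.3.3), 4 groups in 1 fit, no block, with 2-sided p values, Benjamini-Hochberg over all tested probes. The fit was tested on simulated data.

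The members, the 33 gene lists and the tests were chosen with earlier results of these data known, and lists are described by counts and medians, not tested. Genes named are the 8 with the smallest p per direction, the corticosteroid genes NR3C1, HSD11B1, HSD11B2 and TXNIP, and 2 per list of at least 3 measured genes. Other list members are named as examples, chosen after their values were seen. Alternatives were background correction, normalization, the filter, slide, replicate number, array weights and left-out arrays. Some of these genes, and 1 list, are not reported here. Promoter motifs and genome positions were not analysed here.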

Additional observations from a re-analysis of the deposited data

Results flagged for a closer look

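An array was singled out where the gap between it and the nearest other array of its group was large for the group's whole range. By chance this happens in about 1 in 20 groups, and here it was 34 of 268. Of the 34, 11 fell on cortisol 140 d replicate 4 and 1 on control 130 d replicate 3. The median correlation with the other arrays of its group was 0.967 for cortisol 140 d replicate 4, and it was 0.976 for control 140 d replicate 1, the lowest of theirs.
In cortisol 140 d replicate 4 the highest levels of the group were those of ICAM1 (-2.31), ALOX5AP (-0.421), IL10 (-4.42), FCER1G (0.231), FOS (4.07), CCND3 (0.794) and PECAM1 (2.64), and the lowest were those of GJA1 (2.47), PSMB7 (4.33) and PSMA6 (3.83). Control 130 d replicate 3 had the highest FCER1G, 0.362.
In other controls at 130 d, replicate 2 was highest for SLC25A33 (-0.932) and LPL (2.3) and lowest for PECAM1 (1.25) and VIM (6.5), and replicate 4 was highest for AVPR1B (-3.23), FOS (4.78) and DCN (5.99).
In cortisol fetuses at 130 d, replicate 6 was lowest for NFKBIA (0.501), ATP5PD (0.648) and FLT1 (-4.56) and highest for FOS (-0.0177), and replicate 2 was highest for LEP (-2.78).
In controls at 140 d, replicate 1 was lowest for MMP2 (-3.01) and HSPA1A (0.461) and highest for PSMA6 (4.99), replicate 3 was highest for HSD11B2 (-0.119), replicate 4 was lowest for SFTPD (-4.97) and highest for PPARGC1A (-0.3), and replicate 5 was lowest for ICAM1 (-5.36). In cortisol fetuses at 140 d, replicate 3 was lowest for LEPR (-8.59) and replicate 6 highest for HSPA1A (3.51).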

How the results depend on the processing

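The result that no probe passed was tried under 43 alternatives, 27 of which left out 1 array. It was 0 except for 1 probe with the replicate number as a block (A_70_P055151, difference -1.57, limma, adjusted p = 0.0476), 1 without control 130 d replicate 5 (the same probe, adjusted p = 0.0134) and 2 without control 140 d replicate 6 (A_70_P002546 and A_70_P038671, adjusted p = 0.0428 for both). Leaving out single arrays thus gave 0 to 2 called probes and 621 to 834 at an unadjusted p under 0.05. That count, 743, was 238 with normexp, 368 within slide 2 and 1638 within slide 4, and between 582 and 960 in the other alternatives. Over 37 pairs of same-numbered arrays, deviations had a median correlation of 0.05, from -0.16 to 0.36, against -0.02 for other numbers. Many same-numbered arrays also shared a slide, and arrays of the same slide had a median of 0.06, against -0.03 for other slides. The labels do not say that a number pairs fetuses, and the replicate block cannot be told apart from much of the slide. The replicate block gave 822 probes at an unadjusted p under 0.05. Of 2784 values of the 65 genes named by rule, 2721 kept their direction and 63 did not, and 36 of the genes never reversed.
Differences with reversed sign were, with normexp, IL10 -0.066, CRHR1 -0.26, IGF1 -0.031, TNFRSF1A -0.10, PSMB7 0.036, PSMA6 0.046 and TLR7 -0.31. With array weights they were PSMA6 0.047 and VIM -0.13, with the mean of a gene's probes HSD11B1 0.023 and EDNRB 0.040, with quantile normalization HSD11B1 0.0041, with the replicate block HSD11B1 0.0023, and without both arrays VIM -0.12. Within slide 2 they were SLC25A33 0.30, PPARGC1A 0.43, IFNAR2 -0.38, FOS -0.11, DCN -0.13, VIM -0.38 and UCP1 0.72. Within slide 3 they were NR3C1 0.43, HSD11B1 0.42, CRHR1 -0.23, EDNRB 0.014, LPL -0.94, BAD 0.082, TNFRSF1A -0.13 and CD247 0.35. Within slide 4, with 1 array for each older group, they were IL10 -0.0098, ITGB2 -0.32, FCER1G -0.087, HSD11B2 0.75, IGF1 -0.87, CDK2 0.049, SLC25A5 0.33, PPARGC1A 0.0092, MMP2 -0.64, HSP90AA1 0.47, RPS2 0.012, PSMB7 0.036, IFNAR2 -0.22, LEPR 0.037 and DCN -0.38. Leaving out 1 array, HSD11B1 ranged from -0.145 to 0.152, HSD11B2 from -0.597 to 0.244, LPL from -0.0716 to 0.191 and VIM from -0.129 to 0.186. The cause was not tested for any of these. Signal over background limits IL10, TLR7, LHCGR, AVPR1B, HSD11B2, LEPR, CD40LG and UCP1, the genes named by rule that were not well above background on every array.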
